A study of Mus musculus with 9 samples.

Results

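The MHC class II antigen presentation genes examined here were Cd74, H2-Aa, H2-Ab1, H2-Eb1, H2-DMa, H2-DMb1 and Ciita, 7 of the 22173 genes in the deposited expression table. They were chosen by name for their place in the pathway: the invariant chain, 3 classical chains, both chains of the peptide editor H2-DM and the class II transactivator. PolyA RNA was sequenced from 9 mouse libraries that all carry the label cholangiocyte, the epithelial cell lining the bile ducts. The 3 groups of 3 libraries came from mice given a sham operation, mice given bile duct ligation (BDL), which stops bile flow and causes cholestasis, and mice given the same ligation together with senkyunolide A, a small phthalide of the herb Ligusticum chuanxiong. The sources used here do not give strain, sex, age, dose, time after surgery or the way the cells were isolated. The labels do not tie the libraries of a group to separate animals, so the p-values below measure the spread between libraries, which may be partly technical.

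Class II molecules are pairs of an alpha and a beta chain that carry peptides from endosomes to the cell surface, where CD4 T cells read them. New pairs are bound by the invariant chain, which blocks the peptide groove. Endosomal proteases then cut the chain down to a short remnant, and H2-DM exchanges that remnant for a peptide. The transactivator Ciita switches the set on and interferon gamma is its best known inducer. In liver the pathway is known mainly from Kupffer cells, dendritic cells and B cells, and bile duct epithelium is known to display class II molecules in inflamed human ducts.

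The promoters of class II genes are known for an X box, bound by the RFX complex and CREB family factors, and a Y box, bound by NF-Y, to which Ciita docks. The 250 bases before the transcription start were read for the 4 of 7 members that the RefSeq table (GRCm38.p6) covers, H2-Aa, H2-Eb1, H2-DMb1 and H2-DMa. The first 3 are shown because they hold this arrangement in different forms. Each is printed 5′ to 3′ in the direction of transcription, and the windows lie at chr17:34152941-34153190 (plus strand, H2-DMb1), chr17:34287824-34288073 (minus strand, H2-Aa) and chr17:34305617-34305866 (plus strand, H2-Eb1). Capitals mark AACNGATG, TGACGTCA, GATTGG with its reverse complement, and the copy of GNAAC that stands before GATTGG; other copies of that short motif are left in lower case.
H2-DMb1: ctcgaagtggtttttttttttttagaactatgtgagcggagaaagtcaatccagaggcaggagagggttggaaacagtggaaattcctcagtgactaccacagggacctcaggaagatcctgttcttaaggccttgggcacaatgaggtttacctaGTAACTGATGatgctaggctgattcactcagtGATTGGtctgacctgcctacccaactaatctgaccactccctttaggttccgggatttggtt
H2-Aa: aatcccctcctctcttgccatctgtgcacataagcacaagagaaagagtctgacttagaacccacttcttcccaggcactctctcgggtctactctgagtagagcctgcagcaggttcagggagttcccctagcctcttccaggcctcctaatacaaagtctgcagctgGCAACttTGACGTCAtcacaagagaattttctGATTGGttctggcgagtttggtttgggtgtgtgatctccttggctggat
H2-Eb1: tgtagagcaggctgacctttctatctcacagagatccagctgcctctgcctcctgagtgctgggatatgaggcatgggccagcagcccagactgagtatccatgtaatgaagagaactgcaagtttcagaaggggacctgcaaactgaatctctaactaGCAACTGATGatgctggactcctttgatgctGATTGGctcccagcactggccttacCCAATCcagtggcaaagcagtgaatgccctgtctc

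These motifs were chosen after the promoters had been read, and a match describes letters, not a bound site. H2-DMb1 and H2-Eb1 both hold AACTGATG, an X box core, at positions -92 and -89 from the RefSeq start, and AACNGATG occurs on either strand in 1.98% of the 32851 mouse promoter windows. H2-Aa holds none of these and carries TGACGTCA, the palindrome known from cAMP response elements, at position -74 (1.55% of windows). GATTGG lies downstream in each, at position -62 in H2-DMb1, -49 in H2-Aa and -60 in H2-Eb1, and H2-Eb1 has a further copy on the other strand at position -35 (14.6% of windows on either strand). GNAAC lies 27, 27 and 26 bases before GATTGG in H2-DMb1, H2-Aa and H2-Eb1, and in H2-DMb1 and H2-Eb1 it overlaps AACNGATG. That order, with a gap of 15 to 35 bases on the sense strand, occurs in 0.527% of windows. GENCODE M21 starts H2-DMb1 at 34153072, inside its printed window, so the marked H2-DMb1 letters lie within the gene as annotated there. H2-DMa holds only GATTGG, at position -199 in 1 of its 2 windows. The same spaced pair is in the windows of H2-Oa, H2-Ob and H2-Eb2, whose transcripts stayed under 1 FPKM in every library.

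The libraries held an estimated 27.3 to 33.8 M fragments each. Albumin (Alb), the main plasma protein of hepatocytes, ranked 1 or 2 among all genes in every library at 21395 to 46222 FPKM. The biliary keratins Krt19 and Krt7 read 0.672 to 6.70 and 0.323 to 3.99 FPKM, and the epithelial adhesion molecule Epcam 0.480 to 4.59 FPKM, so the markers that define the labelled cell were present at low level. In bulk RNA, fewer cells of a type and less RNA per cell cannot be told apart. Libraries also stood apart within groups. In BDL library 2 the median deviation of log2(FPKM + 1) from each gene's mean was 0.972 higher in the most GC-rich genes (over 55.8% GC) than in the most GC-poor (under 44.3%), against -0.531 to 0.342 in the other 8 libraries. In BDL plus senkyunolide A library 1 the summed FPKM of 20 Kupffer cell, monocyte and macrophage markers was 653, against 2165 and 2626 in libraries 2 and 3 of its group and 344 to 469 in sham.

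Ligation was compared with the sham operation first. All 4 of the abundant class II transcripts and both H2-DM chains were higher in BDL, and in none of these 6 genes did a BDL library fall below a sham library. The mean FPKM was 2.65 times the sham mean for H2-Aa, 3.33 times for H2-Eb1 and 4.27 to 4.61 times for H2-Ab1 and Cd74. Ciita, which is known to set the level of all of them, was low throughout and overlapped between the groups.

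**Figure D1:**
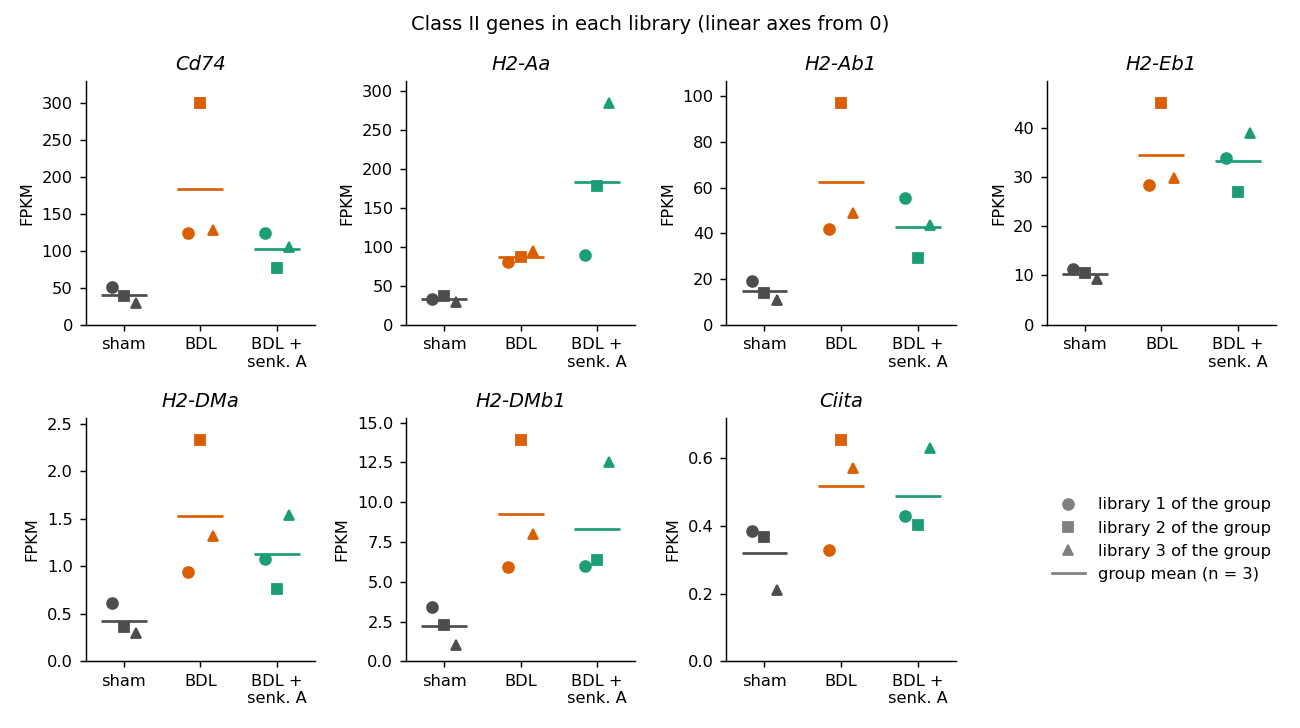
FPKM of each class II gene in each of the 9 libraries, on linear axes from 0 that differ between genes; symbols give the library number within its group, lines the group mean (n = 3). The sham libraries lie below all BDL and all BDL plus senkyunolide A libraries for every gene except Ciita, BDL library 2 is the highest BDL library for every gene except H2-Aa, and H2-Aa rises above its BDL values in 2 of the 3 senkyunolide A libraries.

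Cd74, the invariant chain (chromosome 18, 60803848 to 60812652, plus strand, GRCm38), had the highest class II mean in sham and in BDL. It read 50.7, 39.1 and 29.6 FPKM in the sham libraries, against 123, 299 and 127 in the BDL libraries. BDL library 2 held more than the other 2 BDL libraries together, and the lowest BDL value was still above the highest sham value. Cd74 rose by 2.08 ± 0.36 (SE) on the log2(FPKM + 1) scale (limma, adjusted p = 0.00792, n = 3 and 3), from 39.8 ± 10.6 to 183 ± 100 FPKM (mean ± SD). It kept its call in each of 18 alternative settings, at log2 differences of 1.66 to 2.30, including the one without BDL library 2.

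H2-Aa, the alpha chain of the class II molecule I-A (chromosome 17, 34282744 to 34287823, minus strand), was the second of the abundant transcripts. The sham libraries read 32.3, 37.3 and 29.3 FPKM, those of BDL 79.9, 87.3 and 94.5. Here the 3 BDL libraries lay close together and BDL library 2 did not stand out. H2-Aa rose by 1.38 ± 0.35 (limma, adjusted p = 0.0311), from 33 ± 4.04 to 87.2 ± 7.30 FPKM.

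H2-Ab1, the beta chain that pairs with H2-Aa (chromosome 17, 34257689 to 34269419, plus strand), read 19.2, 13.9 and 10.9 FPKM in the sham libraries, against 41.7, 96.9 and 49.0 after ligation. Within each group its order over the libraries was that of Cd74, with BDL library 2 far above the others. H2-Ab1 rose by 1.96 ± 0.35 (limma, adjusted p = 0.00928), from 14.7 ± 4.17 to 62.5 ± 30.0 FPKM. H2-Eb1, the beta chain of the class II molecule I-E (chromosome 17, 34305867 to 34316674, plus strand), read 11.2, 10.4 and 9.28 FPKM in the sham libraries and 28.4, 45.0 and 29.7 after ligation. Its sham libraries were within 2 FPKM of each other, the tightest of the abundant chains. H2-Eb1 rose by 1.62 ± 0.23 (limma, adjusted p = 0.00455), from 10.3 ± 0.990 to 34.4 ± 9.21 FPKM. The alpha chain of I-E is not analysed here. Some mouse H2 haplotypes are known to lack I-E at the surface, and the haplotype of these mice is not given.

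The peptide editor was lower in level. H2-DMb1, its beta chain (chromosome 17, 34153072 to 34160230, plus strand), read 3.40, 2.29 and 1.03 FPKM in the sham libraries, then 5.95, 13.9 and 7.98 in BDL, and rose by 1.66 ± 0.37 (limma, adjusted p = 0.0196). H2-DMa, its alpha chain (chromosome 17, 34119541 to 34139101, plus strand), read 0.618, 0.362 and 0.295 FPKM in the sham libraries, then 0.939, 2.33 and 1.32 in BDL, and rose by 0.80 ± 0.23 (limma, adjusted p = 0.0455). Both had their highest value in BDL library 2, and no BDL library fell to a sham level. H2-DMb1 has a near-identical neighbour, H2-DMb2, and its value is uncertain because the counting could split reads over the pair. H2-DMb2 itself read 0.273 to 0.859 FPKM over the 9 libraries.

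The low FPKM of H2-DMa went with a long gene model. FPKM divide fragments by gene length, and the deposited values are those of whole fragment numbers over an implied length of 8325 bases for H2-DMa and 1284 bases for H2-DMb1. GENCODE M21 gives merged exons of 3448 and 1681 bases. The fragments behind the values were alike: 159, 86 and 67 for H2-DMa against 135, 84 and 36 for H2-DMb1 in sham, and 264, 624 and 349 against 258, 575 and 326 in BDL. The ratio of H2-DMa to H2-DMb1 fragments was 0.778 to 1.86 over the 9 libraries, against an FPKM ratio of 0.120 to 0.287. The lowest of these numbers, 36 fragments for H2-DMb1 in sham library 3, has an exact 95% Poisson interval of 25.2 to 49.8, which covers counting error only.

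**Figure D2:**
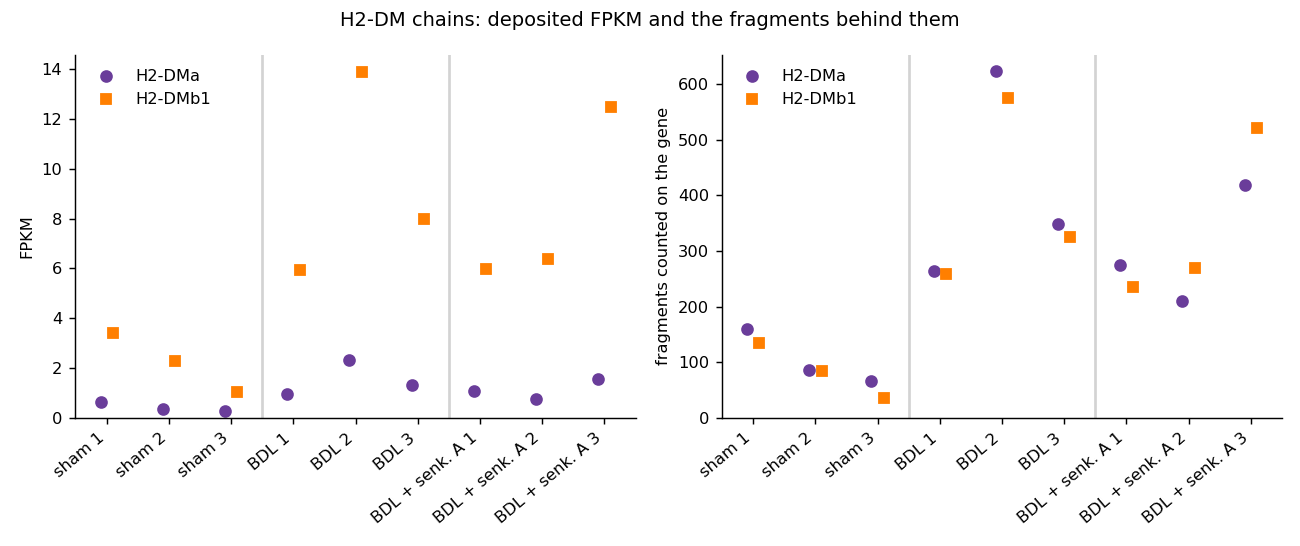
The 2 chains of H2-DM in each library as deposited FPKM (left) and as the whole fragment numbers those FPKM imply (right), on linear axes from 0. In FPKM H2-DMb1 lies above H2-DMa in every library, while the fragment numbers of the 2 genes run close together, with 36 and 67 in sham library 3 and 575 and 624 in BDL library 2.

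Ciita, the transactivator (chromosome 16, 10480059 to 10528418, plus strand), read 0.384, 0.369 and 0.210 FPKM in sham, 0.330, 0.655 and 0.572 in BDL and 0.429, 0.403 and 0.632 in BDL plus senkyunolide A. BDL library 1 lay below 2 of the sham libraries, while all 3 senkyunolide A libraries were just above the highest sham library. These values rest on 56 to 206 fragments per library. Ciita fell outside the filter on low values, with a mean of 0.443 FPKM over the 9 libraries against the minimum of 1, and H2-DMa was just inside it at 1.03. Fitted without the filter over 16802 genes, Ciita differed by 0.20 between BDL and sham (95% interval -0.03 to 0.43, limma adjusted p = 0.292), on a scale that compresses values this low.

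In limma with Benjamini-Hochberg adjustment, all 6 tested members were higher in BDL at an adjusted p under 0.05, where 8.12% of the 9884 tested genes were called higher. H2-DMa reached the filter only through its BDL and senkyunolide A values, so its place among the 6 is no support. The groups did not overlap, with BDL higher, in 6 of 6 members and in 21.5% of all tested genes. The median log2 difference was 1.64 over the 6 members and 0.152 over all tested genes. Median-ratio scaling between libraries moved the latter to -0.021, the split of called genes from 803 higher and 281 lower to 524 and 502, and the members called to 4, without H2-Aa (log2 difference 1.17) and H2-DMa (0.71).

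The calls did not rest on the libraries equally. H2-Eb1, like Cd74, passed in 18 of 18 alternatives, and H2-Ab1 in 17, losing its call without sham library 3 (limma adjusted p = 0.0567). H2-DMb1 lost it without sham library 2, sham library 3 or BDL library 2 (limma adjusted p 0.0774 to 0.0968). H2-Aa, with the smallest SD within BDL among the abundant transcripts, lost it without any 1 of the 6 sham and BDL libraries (limma adjusted p 0.0550 to 0.127). The main fit pools the spread of all 3 groups, and H2-Aa read 89.0, 177 and 284 FPKM in the senkyunolide A libraries. With only the 2 groups fitted its adjusted p was 0.00202 (limma), and without senkyunolide A library 1 it was 0.00189. H2-DMa lost its call without sham 2, sham 3, BDL 2, BDL 3 or senkyunolide A library 2 (limma adjusted p 0.0583 to 0.175). BDL library 2, the library with the GC shift, held the highest BDL value of every member except H2-Aa. GC content was 51.0% for H2-Aa, 51.8% for H2-Eb1 and up to 57.3% in the other members, and its part in these values was not tested. After a correction for GC content, chosen after seeing the data, Cd74, H2-Ab1, H2-Eb1 and H2-DMb1 passed, H2-Aa stood at 1.29 (limma adjusted p = 0.0544) and H2-DMa at 0.42 (adjusted p = 0.167). On the corrected log2 scale BDL library 2 was still the highest BDL library for Cd74 (7.72, against 6.92 and 6.85 in libraries 1 and 3) and for H2-Eb1 (5.43, against 4.81 and 4.78). For H2-Aa the BDL libraries read 6.30, 6.45 and 6.45.

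Senkyunolide A was then examined among ligated mice. None of the 6 tested members passed. H2-Aa was higher on average with the compound and Cd74 and H2-Ab1 lower, and H2-Eb1 and both H2-DM chains had differences from -0.23 to -0.03. The senkyunolide A libraries also differed among themselves.

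Cd74 read 125, 76.3 and 104 FPKM in the senkyunolide A libraries, a mean of 102 ± 24.2 against 183 ± 100 in BDL. Its highest senkyunolide A value lay just above the lowest BDL value, so the groups overlapped. The log2 difference was -0.74, with a 95% interval of -1.53 to 0.04 (limma, adjusted p = 0.414). H2-Ab1 read 55.3, 29.0 and 43.4 FPKM (42.5 ± 13.2), with library 1 highest as for Cd74. Its difference from BDL was -0.49, with an interval of -1.26 to 0.27 (limma, adjusted p = 0.512).

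H2-Aa was ordered differently, with library 1 lowest. It read 89.0, 177 and 284 FPKM in senkyunolide A libraries 1, 2 and 3, a mean of 183 ± 97.6 against 87.2 ± 7.30 in BDL. Library 1 was within the BDL range, and libraries 2 and 3 were above every BDL library. The difference was 0.91, with an interval of 0.15 to 1.68 and an unadjusted p under 0.05, and it did not pass the adjustment (limma, adjusted p = 0.407, range 0.0403 to 0.780 over 18 alternatives). Without senkyunolide A library 1 it was 1.35 and passed (limma, adjusted p = 0.0403).

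H2-Eb1 read 33.8, 27.0 and 39.0 FPKM with the compound (33.2 ± 5.99), a difference of -0.03 with an interval of -0.54 to 0.48 (limma, adjusted p = 0.961). H2-DMb1 read 5.98, 6.37 and 12.5 FPKM, and H2-DMa 1.07, 0.765 and 1.54 FPKM, and both overlapped with BDL. Their differences were -0.14 (interval -0.95 to 0.67) and -0.23 (-0.73 to 0.27). The sign of these 3 small differences turned positive under some scalings or left-out libraries, GC correction among them. Ciita differed by -0.03 (interval -0.26 to 0.21, unfiltered fit, limma adjusted p = 0.938).

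Of the 6 tested members 0 passed in limma, where 0.0101% of all tested genes (1 of 9884) were called. At an unadjusted p under 0.05 there was 1 member, H2-Aa, where 12.3% of genes were. The groups overlapped in all 6 members. Over all genes they did not overlap, with senkyunolide A higher, in 3.25% and, with senkyunolide A lower, in 14.3%. The median was -0.18 over the members and -0.116 over all tested genes.

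**Figure D3:**
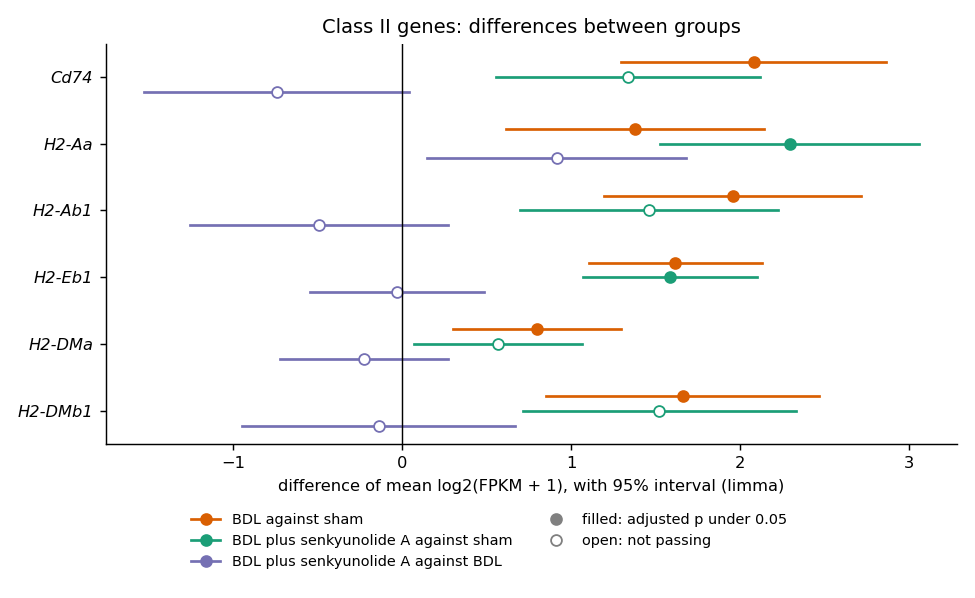
Differences of mean log2(FPKM + 1) between groups for the 6 tested class II genes, with 95% intervals from limma; filled points had an adjusted p under 0.05. All 6 points of BDL against sham are filled and lie from 0.80 to 2.08, those of senkyunolide A against BDL lie on both sides of 0 from -0.74 to 0.91, and only H2-Aa and H2-Eb1 are filled in senkyunolide A against sham.

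The third comparison set BDL plus senkyunolide A against sham, and shares the sham libraries with the first. H2-Aa rose by 2.29 ± 0.35 (limma, adjusted p = 0.0196), to 5.56 times its sham mean, and H2-Eb1 by 1.59 ± 0.23 (limma, adjusted p = 0.0170), to 3.22 times. H2-DMb1, H2-Ab1, Cd74 and H2-DMa had differences of 1.52, 1.46, 1.34 and 0.57 and did not pass (limma, adjusted p = 0.0535, 0.0522, 0.0634 and 0.163). All 4 had an unadjusted p under 0.05, as did 23.2% of all tested genes. Ciita differed by 0.17 (interval -0.06 to 0.40, unfiltered fit, limma adjusted p = 0.406).

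Thus 2 of 6 tested members were called higher, where 1.76% of genes were, and in 6 of 6 the groups did not overlap with senkyunolide A higher, as in 17.5% of genes. The median was 1.49 over the members and 0.036 over all tested genes. H2-DMa reached the filter only through its BDL and senkyunolide A values, so its place in these counts is again no support. Both calls ended without sham 1, sham 2, sham 3, senkyunolide A 2 or senkyunolide A 3 (limma adjusted p 0.0618 to 0.112), and 4 members were called without senkyunolide A library 1 or without BDL library 2. Over all 3 groups, the summed FPKM of the 7 members was 118, 104 and 80.6 in sham, 281, 545 and 310 in BDL and 310, 317 and 485 in BDL plus senkyunolide A. Without Cd74 the sum was 157, 246 and 183 in BDL and 185, 241 and 381 with the compound, and these ranges overlapped.

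The 2 chains of I-A parted in libraries 2 and 3 of the senkyunolide A group. The ratio of H2-Aa to H2-Ab1 FPKM was 1.69, 2.69 and 2.68 in sham, 1.92, 0.901 and 1.93 in BDL and 1.61, 6.11 and 6.54 in BDL plus senkyunolide A. The other 7 libraries thus lay at 2.69 or below, and library 1 of the senkyunolide A group was among them. An exact two-sided permutation test of this ratio, which was picked after its values were seen, gave p = 0.3 between the 2 ligated groups, where 3 against 3 libraries cannot go below 0.1. H2-Aa made up 28.5 to 37.1% of the summed FPKM of Cd74, H2-Aa, H2-Ab1 and H2-Eb1 in sham, 16.5 to 31.5% in BDL, and 29.4, 57.3 and 60.3% in the senkyunolide A libraries. After GC correction the ratio, taken of FPKM + 1, was 5.35 and 6.12 in those 2 libraries and 1.37 to 2.16 in the other 7. The added 1 also moves this ratio, so the change from the FPKM ratio is not that of the GC correction alone.

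The absolute ratio depends on gene lengths, since the deposited values imply 1128 bases for H2-Aa and 1193 for H2-Ab1, where GENCODE M21 has merged exons of 3798 and 2568 bases. The change between libraries does not, because each gene's length is the same in all of them. H2-Aa rested on 903 to 10416 fragments per library and H2-Ab1 on 356 to 3721. By contrast, the ratio of Cd74 to H2-Ab1 FPKM stayed between 2.25 and 3.09 in all 9 libraries, and that of H2-Eb1 to H2-Ab1 between 0.464 and 0.932.

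**Figure D4:**
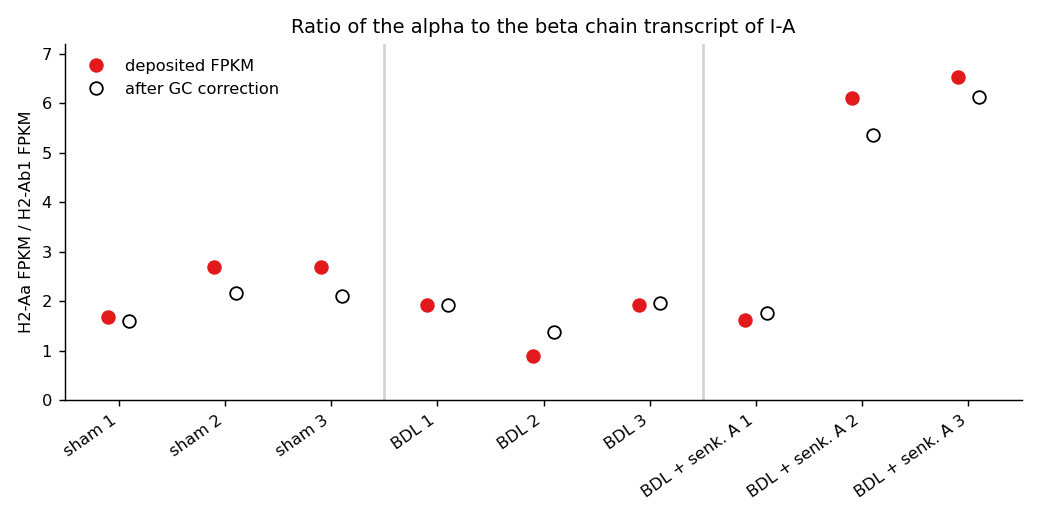
Ratio of H2-Aa to H2-Ab1 in each library, from the deposited FPKM (filled) and from FPKM + 1 after GC correction (open), on a linear axis from 0. Senkyunolide A libraries 2 and 3 lie at 6.11 and 6.54 as deposited, and the other 7 libraries between 0.901 and 2.69.

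The other class II chains stayed under 1 FPKM in every library and entered no test: 4 of the 6 listed were in the table. H2-Oa and H2-Ob form H2-DO, which restrains H2-DM and is known from B cells and thymus. H2-Oa read 0.159, 0.458 and 0 FPKM in sham, 0.145, 0.0508 and 0.360 in BDL and 0.533, 0.595 and 0.579 with senkyunolide A. The senkyunolide A libraries were the 3 highest, at 20, 24 and 23 fragments against 0 to 16 elsewhere, and the difference from BDL, 0.41 in the unfiltered fit, did not pass (limma adjusted p = 0.468). H2-Ob read 0.0708 to 0.413 FPKM and overlapped between all groups.

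No factor or coactivator listed for these promoters passed in any comparison, which at the shares given below does not set the list apart. Of 10 genes of the transcription complex, all tested, 0 passed in BDL against sham, where 11% of all genes passed in either direction, and their median was -0.13. The RFX subunits Rfx5, Rfxap and Rfxank, which bind the X box, differed by 0.33, -0.16 and -0.29 (limma, adjusted p = 0.317, 0.652 and 0.503). At an unadjusted p under 0.05 there were 0 of the 10 as well. In senkyunolide A against BDL and against sham 0 of 10 passed too, with medians of -0.07 and -0.16 and 0 and 1 at an unadjusted p under 0.05. Over all tested genes 0.0101% were called in the former and 1.76% were called higher in the latter. An unadjusted p under 0.05 was reached by 12.3% and 23.2% of them.

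Among 9 tested genes of endosomal processing 3 rose in BDL against sham and 0 fell, with a median of 1.08, where 8.12% of all tested genes rose. Ctsl, a cathepsin known to cut the invariant chain in thymic epithelium, rose from 147, 150 and 132 FPKM in sham to 446, 372 and 319 in BDL, a difference of 1.39 ± 0.28 (limma, adjusted p = 0.0142). All 3 BDL libraries were above all sham libraries. The asparagine endopeptidase Lgmn and the aspartic protease Ctsd rose by 1.51 ± 0.36 and 1.08 ± 0.30 (limma, adjusted p = 0.0257 and 0.0408). Ctss, the main invariant chain protease of B cells and dendritic cells, read 27.9, 36.9 and 32.3 FPKM in sham, 104, 133 and 98.5 in BDL and 48.6, 185 and 340 with senkyunolide A. Library 1 again lay apart from libraries 2 and 3. The Ctss difference of 1.75 ± 0.53 in BDL against sham did not pass (limma, adjusted p = 0.0581). In senkyunolide A against BDL and against sham 0 of the 9 passed (medians 0.09 and 0.97), with 1 and 8 at an unadjusted p under 0.05, as had 12.3% and 23.2% of all tested genes.

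The class I pathway presents cytosolic peptides to CD8 T cells. Of its 14 tested genes 3 rose in BDL against sham and 0 fell, with a median of 0.46, again against 8.12% of all tested genes. They were H2-D1, a classical class I heavy chain (1.22 ± 0.27, limma adjusted p = 0.0196), Tapbp, which helps load it (1.13 ± 0.27, adjusted p = 0.0253), and the immunoproteasome subunit Psmb10 (0.87 ± 0.22, adjusted p = 0.0340). H2-D1 shares long stretches with other class I genes, so its value is uncertain. B2m, the light chain of all class I molecules, differed by -0.06 and Nlrc5, the class I transactivator, by 0.47, and neither passed (limma, adjusted p = 0.927 and 0.309). In senkyunolide A against BDL 0 of 14 passed (median -0.17, 2 at an unadjusted p under 0.05), and against sham Psmb10 passed (0.99 ± 0.22, limma adjusted p = 0.0485; median of the list 0.28). Calls covered 0.0101% of all tested genes against BDL, and 1.76% were called higher against sham.

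Interferon gamma signalling, the best known inducer of Ciita, had 0 of 10 tested genes called in each of the 3 comparisons, with medians of 0.17, 0.13 and 0.02 and 5, 0 and 5 genes at an unadjusted p under 0.05 in limma. Ifng itself was under the filter, and its highest library read 0.312 FPKM. The costimulation list had 1 tested gene, Cd86, which did not pass in any comparison (differences 0.92, 0.14 and 1.06, limma adjusted p = 0.108, 0.850 and 0.101). Of 3 tested partners of Cd74 in signalling by the cytokine MIF 0 passed in each comparison, with medians of 0.47, -0.07 and 0.15 and 1, 0 and 1 at an unadjusted p under 0.05. Over all tested genes 11% were called in BDL against sham and 0.0101% in senkyunolide A against BDL. In senkyunolide A against sham 1.76% were called higher. At these shares the counts of 0 calls do not set the lists apart.

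Macrophages are known to bear class II molecules. Of 10 Kupffer cell markers 5 rose in BDL against sham and of 10 monocyte and macrophage markers 5, with 0 falling in either list, where 8.12% of all tested genes rose. Among the latter, Cx3cr1, which rose, and Ccr2 and Itgam, which did not pass, had sham means under 1 FPKM. They reached the filter only through the ligated groups. The summed FPKM of the 20 was 394, 469 and 344 in sham, 921, 1538 and 1258 in BDL and 653, 2165 and 2626 in BDL plus senkyunolide A. Cd5l, a protein secreted by Kupffer cells and the most abundant of their markers by the mean over the 9 libraries, read 45.6 to 63.8, 106 to 220 and 79.7 to 396 FPKM in the 3 groups. Lyz2, lysozyme of myeloid cells, read 67.5 to 96.4, 241 to 287 and 120 to 836 FPKM. Of 7 pan-leukocyte markers 3 rose, and the sum of the 7 was 54.7 to 83.1 FPKM in sham, 150 to 324 in BDL and 134 to 650 with senkyunolide A.

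The members were also set against this marker sum. H2-Aa was 8.22, 7.95 and 8.53% of the macrophage marker sum in sham, 8.67, 5.68 and 7.51% in BDL and 13.6, 8.18 and 10.8% with senkyunolide A. H2-Ab1 was 4.87, 2.96 and 3.18% in sham, 4.53, 6.30 and 3.89% in BDL, and 8.46, 1.34 and 1.65% with the compound. In senkyunolide A libraries 2 and 3 H2-Ab1 was thus below every other library against these markers while H2-Aa was not, and library 1 was the highest for both. Cd74 was 12.9, 8.33 and 8.61% in sham, 13.4, 19.5 and 10.1% in BDL and 19.1, 3.52 and 3.98% with the compound. H2-Eb1 ranged from 2.22 to 2.86% in the sham libraries and from 2.36 to 3.08% after ligation, and was 5.17, 1.25 and 1.48% with the compound. For each of these 4 genes the 2 ligated groups overlapped in this ratio. The part of these cells in the class II differences was not tested.

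**Figure D5:**
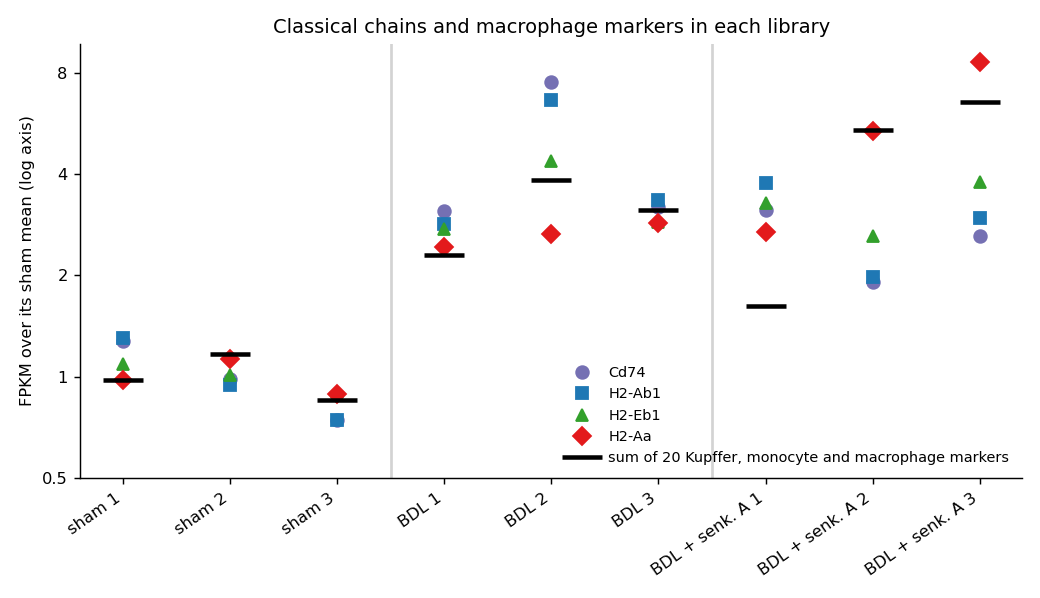
Cd74, H2-Ab1, H2-Eb1 and H2-Aa and the summed FPKM of 20 Kupffer cell, monocyte and macrophage markers (black bars) in each library, each divided by its own sham mean, on a log axis. The marker sum and H2-Aa reach 6.53 and 8.61 in senkyunolide A library 3, where Cd74 and H2-Ab1 are at 2.62 and 2.96; in library 1 the marker sum is at 1.63 and the 4 genes at 2.70 to 3.77.

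B cell and dendritic cell markers were low. The 9 B and plasma cell markers summed to 2.17 to 8.10 FPKM in sham, 12.7 to 16.9 in BDL and 5.10 to 8.95 with senkyunolide A. Jchain, the joining chain of secreted antibodies and a plasma cell marker, made most of the BDL sum at 14.1, 8.47 and 9.55 FPKM and rose by 2.22 ± 0.40 (limma, adjusted p = 0.00996). Pax5, a transcription factor that defines B cells, read at most 0.0709 FPKM, 5 of the 9 markers were under 1 FPKM in every library, and 0 were at 0 in all. The 12 dendritic cell markers summed to 3.34 to 4.45, 7.68 to 9.58 and 6.13 to 13.3 FPKM. Flt3 and Xcr1 stayed at or below 0.0681 and 0.0817 FPKM, and 7 of the 12 were under 1 FPKM in every library. Of 2 tested, Irf8 rose (1.01 ± 0.25, limma adjusted p = 0.0285), where 8.12% of all tested genes rose, and Batf3 did not pass (0.96 ± 0.30, adjusted p = 0.0628). Batf3 reached the filter only through the ligated groups, so its higher values are partly set by the filter. Batf3 averaged 0.672 FPKM with the sham operation, 2.25 after ligation alone and 2.65 with the compound. The same averages were 0.173, 0.638 and 0.844 for Itgax, and 0.0640, 0.442 and 1.04 for Clec10a. Zbtb46, Clec9a and Siglech had lower means after ligation alone than with the sham operation.

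The remaining lists are given for the same reason. The 8 T and NK cell markers in the table summed to 1.74 to 6.05 FPKM in sham, 4.94 to 12.2 in BDL and 2.23 to 6.25 with senkyunolide A. Of 2 tested 0 passed in BDL against sham in limma, both at an unadjusted p under 0.05. These 2, Cd3g and Nkg7, had sham means of 0.583 and 0.808 FPKM and entered the test only through ligated libraries, so their higher values are partly set by the filter. Of 4 tested neutrophil markers 3 rose, where 8.12% of all tested genes did. All 6 in the table summed to 2.92 to 6.43, 34.6 to 65.5 and 17.7 to 105 FPKM. Retnlg, listed at 0 in all sham libraries, and Csf3r entered that test only through the ligated groups, so the count is partly set by the filter. Of 6 tested biliary epithelial markers 3 rose, the sum of all 10 being 24.0 to 39.0, 86.9 to 582 and 55.2 to 410 FPKM, most of it Spp1, the secreted phosphoprotein osteopontin, which macrophages also make. The 3 that rose, Krt7, Krt19 and Epcam, had sham means under 1 FPKM and likewise passed the filter only through the ligated groups. Of 10 hepatocyte markers 1 fell and of 8 liver endothelial markers 0 passed (1 at an unadjusted p under 0.05). In senkyunolide A against BDL 0 markers passed in any of the 10 lists (limma), with 0 to 3 per list at an unadjusted p under 0.05. Over all tested genes these shares were 0.0101% and 12.3%, so the 0 does not set the lists apart. In senkyunolide A against sham 4 of 7 pan-leukocyte, 3 of 10 Kupffer cell, 3 of 4 neutrophil and 1 of 6 biliary markers were called higher. The other lists had 0, and 1.76% of all tested genes were called higher. Retnlg and Krt7 are among these calls, with the filter limit given above. The part of the listed cell types in the class II differences was not tested.

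The genes whose pattern over the 9 libraries was most like the mean of the 6 tested members, by Pearson correlation of log2(FPKM + 1) with the mean z-score, were Sema4b (0.978), Zfp593 (0.970), Psmb10 (0.968), Ppp1r14b (0.967), Cdkn2c (0.966), Lsp1 (0.966), Pold4 (0.966) and Ap1s1 (0.966). The libraries fall into groups with sham lowest, so these values mainly describe that shared order over 9 points, and they carry no p. Lsp1, a leukocyte actin-binding protein, read 0.532 to 1.36 FPKM in sham, 2.26 to 4.79 in BDL and 3.07 to 4.99 with senkyunolide A. Cdkn2c, an inhibitor of cyclin-dependent kinases, read 2.83 to 3.66, 5.88 to 7.06 and 5.24 to 6.21 FPKM. Among the members themselves, the same correlation over the 9 libraries was highest for Cd74 and H2-Ab1 (0.991) and lowest for Cd74 and H2-Aa (0.572).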

How the data were processed

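PolyA RNA of 9 mouse libraries, 3 per group, was analysed from 1 table of FPKM, which the authors computed and deposited. The build was GRCm38 (mm10), and DESeq2 1.20.0, featureCounts 1.5.0-p3, HISAT2 2.0.5, fastp and CASAVA 1.8 were used, named with no role or order, per the submitters' processing notes. The sources used here do not give settings or strand use. Without strand, reads cannot be told apart where genes overlap, as Gm20513 does the start of H2-Eb1 and Brd2 that of H2-DMa in GENCODE M21. A few very abundant transcripts lower the FPKM of all other genes, so other scalings were tried.

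Groups came from the sample labels, and the members and gene lists were chosen with earlier results of these data known. Values were analysed as log2(FPKM + 1), which understates the change of low genes. A mean FPKM of 1 or more was required, and the 9884 genes that met it were fitted with limma 3.58.1 in R 4.3.3 over all 3 groups (variance trend, two-sided), with Benjamini-Hochberg adjustment over all genes and calls at an adjusted p under 0.05. The fit was also run on simulated data with independent noise in each gene. That run cannot show how the fit behaves where whole libraries shift, and no result here rests on it. Alternatives were another pseudocount, filter, scaling or variance model, fewer groups, a replicate block, GC correction and each library left out. The class II sum was compared by an exact permutation test, whose p is not reported because the members were chosen with results known. Relative depth came from steps in the FPKM of low genes, the absolute scale from 112 genes with a single transcript, and fragment numbers are the smallest whole numbers that give all 9 values of a gene within 0.01.

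Named genes were the 7 members, in each pathway list up to 3 genes per comparison that passed, H2-Oa, H2-Ob, H2-DMb2, Rfx5, Rfxap, Rfxank, Ctss, Ctsl, B2m and Nlrc5 as values, the 3 most abundant markers per cell type where described, and the 8 genes most like the members. H2-Eb2, Cx3cr1, Ccr2, Itgam, Csf3r, Krt7, Krt19, Epcam, Cd86, Ifng, Pax5, Flt3 and Xcr1 were named in addition, after their values were seen. So were Itgax, Clec9a, Clec10a and Siglech.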

Additional observations from a re-analysis of the deposited data

How the results depend on the processing

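For BDL against sham, 1084 genes were called, with 520 without a filter, 678 at a mean FPKM of at least 5 and 153 to 1722 with 1 library left out; 6 members were called, with 3 without a filter and 2 to 6 with 1 library left out. For senkyunolide A against BDL, 1 gene was called, with 0 when only the 2 groups compared were fitted, 2 after GC correction and 0 to 62 with 1 library left out; 0 members were called, with 0 to 1. For senkyunolide A against sham, 214 genes were called, with 418 at a pseudocount of 0.1, 3 without a filter, 131 under median-ratio scaling, 105 under quantile normalization, 60 with only the 2 groups, 64 after GC correction and 0 to 1806 with 1 library left out; 2 members were called, with 4 at a pseudocount of 0.1, 0 without a filter and 0 to 4 with 1 library left out. The causes were not tested. The log2 difference of the class II sum between senkyunolide A and BDL, 0.0017, ran from -0.2086 to 0.2969 with 1 library left out (-0.1823 without BDL 1, -0.1097 without BDL 3, -0.2086 without senkyunolide A 3). In the same comparison H2-Eb1 turned positive under median-ratio scaling (0.088), quantile normalization (0.010) and GC correction (0.095), and ran from -0.1497 to 0.1737 with 1 library left out. H2-DMb1 turned positive under quantile normalization (0.021) and GC correction (0.040), and ran from -0.444 to 0.1655, and H2-DMa did so under GC correction (0.010). Where a left-out library leaves 2 in a group, the pooled spread stands in for theirs.

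Same-numbered libraries correlated at -0.385 to 0.25 in their deviations from the group means. Differently numbered libraries were not correlated for reference, so these values cannot decide whether the numbers pair the samples. A replicate block gave 882 called genes and 5 members in BDL against sham, 0 and 0 in senkyunolide A against BDL, and 374 and 2 in senkyunolide A against sham. Depth limits the other class II chains most, at 39 fragments or fewer per library, and H2-DMb1, Ciita and H2-DMa fell to 36, 56 and 67. The split of called genes in BDL against sham also moved to 507 higher and 488 lower under quantile normalization and to 514 and 476 after GC correction.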
